A study of Homo sapiens with 18 samples.

Results

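The mRNAs of 10 members of the BCL2 family, BBC3 among them, were followed by RNA sequencing in cells of HCT116, a human colorectal cancer line of epithelial origin. The members were taken by symbol from the 31004 genes of the count table, and all 10 were present and passed the filter on low counts in each comparison. They comprised 8 pro-death genes (the effectors BAX and BAK1 and the BH3-only genes BBC3, PMAIP1, BID, BIK, BCL2L11 and BAD) and 2 pro-survival genes (BCL2L1 and MCL1). The 18 libraries formed 6 groups of 3 replicates, which the series describes as biological. The Ctrl_NC group carried a stable empty control and a negative control in place of hnRNPK, and the Ctrl_hnRNPK group the same stable control with a construct that overexpressed hnRNPK. The CRLM1_NC and CRLM1_hnRNPK groups stably overexpressed the long noncoding RNA CRLM1, without and with the hnRNPK construct. The Antisense_NC and Antisense_hnRNPK groups carried the antisense control background, without and with that construct. The labels place HNRNPK cDNA in the pTSB vector, while the methods of the study name genomic DNA as the source of the fragment and another plasmid, so the make of the construct is not settled here. Reads at HNRNPK can come from the construct as well as the gene. The number of independently derived lines behind each stable background was not stated. No death-inducing drug is named in the labels. The methods of the study describe puromycin selection of stable lines and transfection of the hnRNPK vector with a lipid reagent. The values may include a response to these steps, which was not tested.

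Proteins of the BCL2 family decide whether the outer mitochondrial membrane stays intact. The effectors BAX and BAK1 form pores in it, the pro-survival proteins hold the effectors in check, and the BH3-only proteins either neutralise the pro-survival proteins or activate the effectors directly. BBC3 (PUMA) and PMAIP1 (NOXA) are controlled largely through their transcription, and BBC3 was singled out by the study on these same libraries, so its difference in them is not independent evidence. BBC3 lies at chr19:47220822-47232766 on the minus strand and PMAIP1 at chr18:59899996-59904305 on the plus strand, with BCL2L1 at chr20:31664452-31723989 and MCL1 at chr1:150560895-150579738, both on the minus strand (GRCh38, Gencode 44).

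Promoter windows, from 250 bases before to 50 after each annotated start, were matched in RefSeq (GRCh38.p14) for 8 of the 10 members. BIK and MCL1 had no entry. BID had 5 entries and BAD and BCL2L1 had 2 each, of which only the first was searched. The windows of BBC3 (chr19:47232618-47232917, minus strand), PMAIP1 (chr18:59899746-59900045, plus strand) and BCL2L1 (chr20:31723914-31724213, minus strand) are printed 5′ to 3′ because the results turn on these members, and capitals mark the motifs found:
BBC3: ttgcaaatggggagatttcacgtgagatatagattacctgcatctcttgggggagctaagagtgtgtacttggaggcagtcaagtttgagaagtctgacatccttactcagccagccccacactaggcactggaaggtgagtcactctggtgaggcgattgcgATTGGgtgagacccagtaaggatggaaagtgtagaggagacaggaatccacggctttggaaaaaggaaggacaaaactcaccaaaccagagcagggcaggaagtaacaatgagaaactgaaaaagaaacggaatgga
PMAIP1: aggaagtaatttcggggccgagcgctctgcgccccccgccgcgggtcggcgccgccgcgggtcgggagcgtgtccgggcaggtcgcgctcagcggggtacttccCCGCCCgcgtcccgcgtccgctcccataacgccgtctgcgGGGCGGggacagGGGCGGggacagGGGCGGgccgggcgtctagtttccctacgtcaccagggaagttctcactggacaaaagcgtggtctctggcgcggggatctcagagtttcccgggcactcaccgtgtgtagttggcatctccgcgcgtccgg
BCL2L1: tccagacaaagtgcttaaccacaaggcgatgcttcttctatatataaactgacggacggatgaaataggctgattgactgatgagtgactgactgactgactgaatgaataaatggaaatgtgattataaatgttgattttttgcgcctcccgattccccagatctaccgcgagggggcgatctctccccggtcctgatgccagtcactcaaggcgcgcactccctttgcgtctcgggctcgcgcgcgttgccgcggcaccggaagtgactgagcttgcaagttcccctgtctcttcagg
The search covered both strands for the CT element CCCTCCCC (a cytosine-rich sequence of the kind bound by hnRNPK), the cAMP response element TGACGTCA, the amino acid response element TGATGNAA, the GC box GGGCGG and the CCAAT box CCAAT. These were present in 13.6%, 1.85%, 3.62%, 45% and 34.6% of 35116 RefSeq promoter windows of the same length. The BBC3 window held 1 CCAAT box, read on the opposite strand as ATTGG. The PMAIP1 window held 4 GC boxes, and the BCL2L1 window held none of the motifs. The CT element was in 0 of the 8 matched windows, which says only that these letters do not occur there. The base composition of the windows differed, at 48.0% G and C for BBC3, 52.0% for BCL2L1 and 71.3% for PMAIP1, around a median of 58.7% over all windows.

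The libraries held 19732681 to 27039520 counts, and the epithelial markers EPCAM, CDH1, KRT8, KRT18 and KRT19 were present in every library, while PTPRC, PECAM1, CDH5, COL1A2 and PDGFRB did not exceed 0.04 FPKM. COL1A1, a collagen gene of fibroblasts, lay at 1.66 to 3.9 FPKM. The CRLM1 gene, listed as RP4-710M16.2, had 0 counts in the 6 libraries of the Ctrl background and 800 ± 9.17 FPKM (SD, n = 3) in CRLM1_NC. It was 12.3-fold higher in CRLM1_NC than in Antisense_NC, where it was also counted. HNRNPK lay at 463, 471 and 479.7 CPM (counts relative to library size, scaled by TMM factors) in Ctrl_NC and at 617, 644 and 491 CPM in Ctrl_hnRNPK. It lay at 461, 454 and 455 CPM in CRLM1_NC and at 671, 713 and 571 CPM in CRLM1_hnRNPK, and at 432, 434 and 424 CPM in Antisense_NC and 540.1, 532 and 583 CPM in Antisense_hnRNPK. In the Ctrl and the CRLM1 background, the third hnRNPK library stood apart from the other two of its group and near the NC libraries. Over 12959 genes, the third Ctrl_hnRNPK library correlated at 0.949 to 0.956 with its own group and at 0.989 to 0.990 with Ctrl_NC. The third CRLM1_hnRNPK library correlated at 0.942 to 0.948 with its own group. The study left both libraries out, so the tests, levels, balances and correlations that rest on them are given with and without them.

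Averaged over all libraries, BCL2L1, which encodes BCL-XL, was the most abundant member, and the RNAs of BBC3 and PMAIP1 were the most abundant of the pro-death genes. In FPKM, which divides by transcript length and alone allows genes to be compared, BCL2L1 averaged 112 over the 18 libraries (range 55.4 to 148) and MCL1, a short-lived pro-survival protein, averaged 72.9 (54.0 to 116). BBC3 averaged 66.1 FPKM (42.2 to 101) and PMAIP1 56.3 FPKM (34.1 to 86.9). The remaining pro-death genes averaged lower, although BIK was close to PMAIP1 in the NC groups. The means of BIK and PMAIP1 were 43.3 and 42.0 FPKM in Ctrl_NC, 47.6 and 46.4 FPKM in Antisense_NC and 33.9 and 34.9 FPKM in CRLM1_NC. BIK, a BH3-only protein of the endoplasmic reticulum, averaged 39.7 FPKM, BAX 30.4 FPKM, BAD 18.6 FPKM, BID 14.3 FPKM and BAK1 10.9 FPKM. BCL2L11, which encodes the strong activator BIM, was lowest at 3.00 FPKM (2.04 to 4.22). Without the third libraries that stood apart, BCL2L1 still led at 112 FPKM over 16 libraries, with MCL1 at 75.02, BBC3 at 63.9 and PMAIP1 at 57.8 FPKM, and BCL2L11 was lowest at 3.06 FPKM. The ratio of the highest to the lowest group mean ranged from 1.15 for BID to 2.36 for PMAIP1 with all libraries, and from 1.17 for BID to 2.52 for BCL2L1 without those 2.

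**Figure D1:**
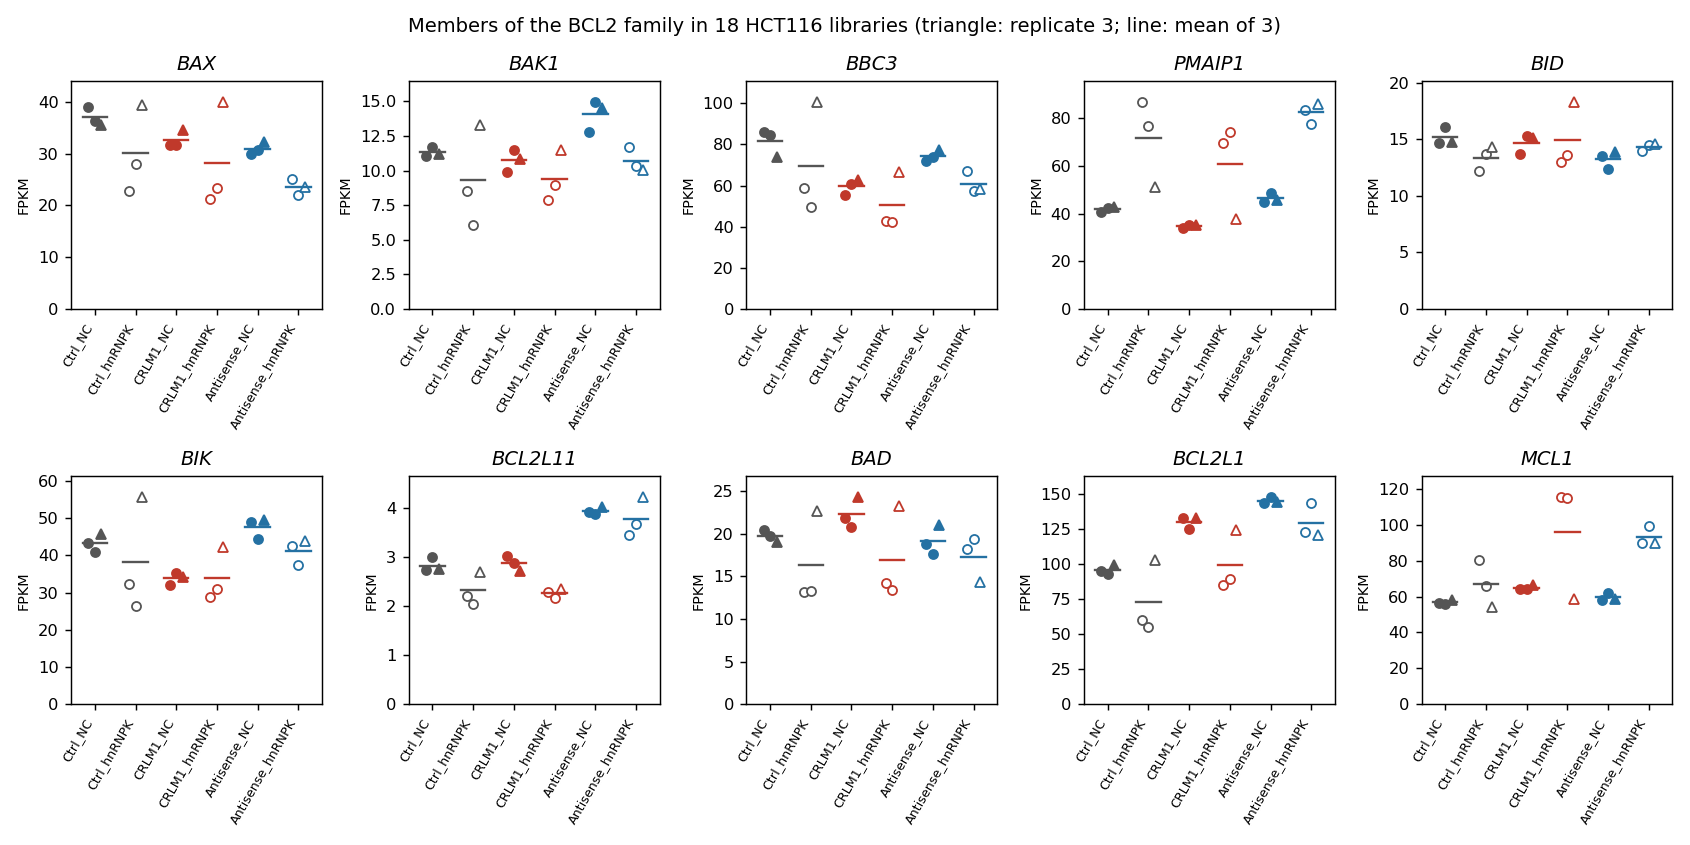
Level of each member in FPKM (linear axis) by group, with 1 point per library, triangles for replicate 3, open symbols for hnRNPK groups and a line at the group mean. BBC3 lies between 42.2 and 101 FPKM. In the Ctrl and CRLM1 backgrounds the triangle of the hnRNPK group sits nearer the NC points than its own group for most members. It often lies outside the NC range, as for BBC3 in Ctrl_hnRNPK at 101 FPKM against 74.1 to 85.9 FPKM in Ctrl_NC.

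In FPKM and with all libraries, the order of the groups differed between the 2 leading BH3-only genes. BBC3 was highest in Ctrl_NC at 81.5 ± 6.40 FPKM (SD, n = 3, as for all group values), followed by Antisense_NC at 74.2 ± 2.75, Ctrl_hnRNPK at 69.7 ± 27.3, Antisense_hnRNPK at 60.9 ± 5.27, CRLM1_NC at 59.6 ± 3.88 and CRLM1_hnRNPK at 50.5 ± 13.9. Every pair of neighbours in this order overlapped, and the wide SD of Ctrl_hnRNPK and CRLM1_hnRNPK came with the third libraries, at 101 and 66.6 FPKM against 58.6 and 49.6 FPKM and 42.8 and 42.2 FPKM in the others. Without these libraries Ctrl_hnRNPK averaged 54.1 FPKM (n = 2) and lay below CRLM1_NC, and CRLM1_hnRNPK was last at 42.5 FPKM (n = 2), with no overlap between them. PMAIP1 was highest in Antisense_hnRNPK at 82.4 ± 4.32 FPKM, then in Ctrl_hnRNPK at 71.6 ± 18.5, CRLM1_hnRNPK at 60.7 ± 19.8, Antisense_NC at 46.4 ± 2.02, Ctrl_NC at 42.0 ± 1.13 and CRLM1_NC at 34.9 ± 0.682. Without the third libraries it averaged 81.9 FPKM in Ctrl_hnRNPK and 72.1 FPKM in CRLM1_hnRNPK. The 3 hnRNPK groups thus held the upper places for PMAIP1 either way. In FPKM the 3 NC groups did not overlap one another, whereas in CPM Antisense_NC at 118 to 128 overlapped Ctrl_NC at 122 to 128. BCL2L1 ran from 145 ± 2.49 FPKM in Antisense_NC to 72.7 ± 26.2 FPKM in Ctrl_hnRNPK, and MCL1 from 96.3 ± 32.7 FPKM in CRLM1_hnRNPK to 56.8 ± 1.19 FPKM in Ctrl_NC. The same groups were at the ends without the third libraries, at 57.6 FPKM for BCL2L1 in Ctrl_hnRNPK and 115 FPKM for MCL1 in CRLM1_hnRNPK. These orders depend on the scale. By mean CPM with all libraries, BBC3 was lowest in Antisense_hnRNPK at 136, with CRLM1_hnRNPK at 146. PMAIP1 was highest in Ctrl_hnRNPK at 201, with Antisense_hnRNPK at 184. MCL1 was lowest in Antisense_NC at 306, with Ctrl_NC at 332, and BCL2L1 kept the same end groups.

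Several members share exons with other genes, and whether counting used the strand was not stated, so their levels are uncertain to that extent. The lncRNA gene ABALON covers 41.3% of the exonic bases of BCL2L1, with up to 1267 counts of its own, and GPR137 covers 23.7% of those of BAD, with up to 317 counts. MIR4435-2HG covers 10.8% of BCL2L11 with up to 1792 counts, and ADAMTSL4-AS1 covers 5.27% of MCL1 with up to 12 counts. BBC3 shares 2.51% of its exonic bases with MIR3190, which had at most 3 counts.

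CRLM1_NC was compared with Ctrl_NC to ask which members differed with CRLM1 overexpression without added hnRNPK. In CRLM1_NC 4 pro-death genes were lower and both pro-survival genes were higher. BBC3 showed the largest difference of the 10 members in the main fit, falling to 0.695 of its Ctrl_NC level. Of the 10 members, 6 passed (adjusted p of at most 0.05), against 34.3% of the 14459 genes tested. Of all genes, 16.9% passed as higher and 17.4% as lower. A single fit of all 18 libraries, whose spread takes in the third hnRNPK libraries, gave 0 passing members here and in both other comparisons of NC groups, where 102, 2357 and 5093 of 15668 genes passed. None of the members differed by 2-fold, as 1.58% of genes did. Since RNA of whole cultures was measured, fewer cells that express a gene and less RNA per cell cannot be told apart. Of the effectors, BAX lay at 78.8, 73.4 and 71.6 CPM in Ctrl_NC and at 61.5, 61.7 and 66.5 CPM in CRLM1_NC. The groups of BAX did not overlap, and its log2 fold change was -0.25 (SE 0.05, edgeR adjusted p = 2.00e-04). BAK1 differed by -0.15 on the log2 scale (SE 0.07, edgeR adjusted p = 0.105), with overlapping groups.

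Among the BH3-only genes, BBC3 lay at 257, 253 and 221 CPM in Ctrl_NC and at 159, 176 and 179 CPM in CRLM1_NC. All CRLM1_NC libraries were below all Ctrl_NC libraries, with a log2 fold change of -0.52 (SE 0.05, edgeR adjusted p = 1.42e-07). The edgeR, DESeq2 or limma adjusted p of BBC3 ran from 6.86e-41 to 0.407 over 15 fits, the main fit included, the upper end being that of the single fit of 18 libraries. PMAIP1, whose protein binds MCL1 in particular, lay at 122, 128 and 128 CPM against 98.6, 102 and 101 CPM. Its groups did not overlap either, and it fell by 0.34 on the log2 scale (SE 0.04, edgeR adjusted p = 1.44e-08). BIK fell by 0.43 (SE 0.06, edgeR adjusted p = 3.48e-07), from 55.8 to 62.1 CPM in Ctrl_NC to 42.1 to 46.4 CPM in CRLM1_NC. The other BH3-only genes did not pass. BID, which is cleaved by caspase-8 to link death receptors to mitochondria, had a log2 fold change of -0.12, BCL2L11 one of -0.05, and BAD, whose protein is controlled by phosphorylation, one of 0.11, with edgeR adjusted p between 0.106 and 0.684.

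The pro-survival genes moved the other way. BCL2L1 lay at 389, 380.0 and 406 CPM in Ctrl_NC and at 524, 493 and 517 CPM in CRLM1_NC. It rose by 0.37 on the log2 scale (SE 0.03, edgeR adjusted p = 2.69e-12), and its groups were well separated. MCL1 lay at 328, 328 and 339 CPM against 362, 362 and 369 CPM, a small rise of 0.12 (SE 0.03, edgeR adjusted p = 0.00231). In all, the groups of 6 members did not overlap, against 47.1% of 12959 genes, and the median log2 fold change was -0.14 over the members and 0.01 over all genes tested.

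CRLM1_NC was also set against Antisense_NC, the second control background, and Antisense_NC against Ctrl_NC. These comparisons share libraries with the first, so their values stand side by side and are not independent. Against Antisense_NC, 9 members passed, 4 higher and 5 lower in CRLM1_NC, where 56.4% of 14364 genes passed, 26.9% higher and 29.5% lower. The groups of 9 members did not overlap, against 64.2% of genes. BBC3 lay at 188, 193 and 205 CPM in Antisense_NC, which was above all 3 CRLM1_NC libraries by a smaller margin than Ctrl_NC was. Its log2 fold change in CRLM1_NC was -0.15 (SE 0.04, edgeR adjusted p = 0.00341). PMAIP1 was at -0.25 (SE 0.05), BIK at -0.33 (SE 0.06), BCL2L11 at -0.29 (SE 0.08) and BAK1 at -0.23 (SE 0.08), all lower in CRLM1_NC. BAX at 0.24 (SE 0.06), BID at 0.32 (SE 0.06), BAD at 0.39 (SE 0.08) and MCL1 at 0.29 (SE 0.04) were higher. BCL2L1, at 513, 529 and 521 CPM in Antisense_NC, overlapped CRLM1_NC, with a difference of 0.01 (SE 0.03, edgeR adjusted p = 0.838).

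In Antisense_NC against Ctrl_NC, 7 members passed, 2 higher and 5 lower, where 66.5% of 14389 genes passed, 34.4% higher and 32.2% lower. For 7 members the groups did not overlap, against 72.4% of genes. BBC3 fell by 0.37 (SE 0.05, edgeR adjusted p = 3.09e-08). BAX fell by 0.49 (SE 0.06), BID by 0.43 (SE 0.06), BAD by 0.28 (SE 0.07) and MCL1 by 0.17 (SE 0.03). BCL2L1 rose by 0.36 (SE 0.03, edgeR adjusted p = 3.84e-12) and BCL2L11 by 0.24 (SE 0.08). BAK1, PMAIP1 and BIK had log2 fold changes of 0.08, -0.09 and -0.10 and did not pass. In these fits BCL2L1 was therefore higher, and BBC3 lower, in both CRLM1_NC and Antisense_NC than in Ctrl_NC. For BBC3 in Antisense_NC this depended on the processing, as given below. Members passed at a share near or above that of all genes in each comparison of backgrounds, and with 10 genes no more is read from the shares.

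**Figure D2:**
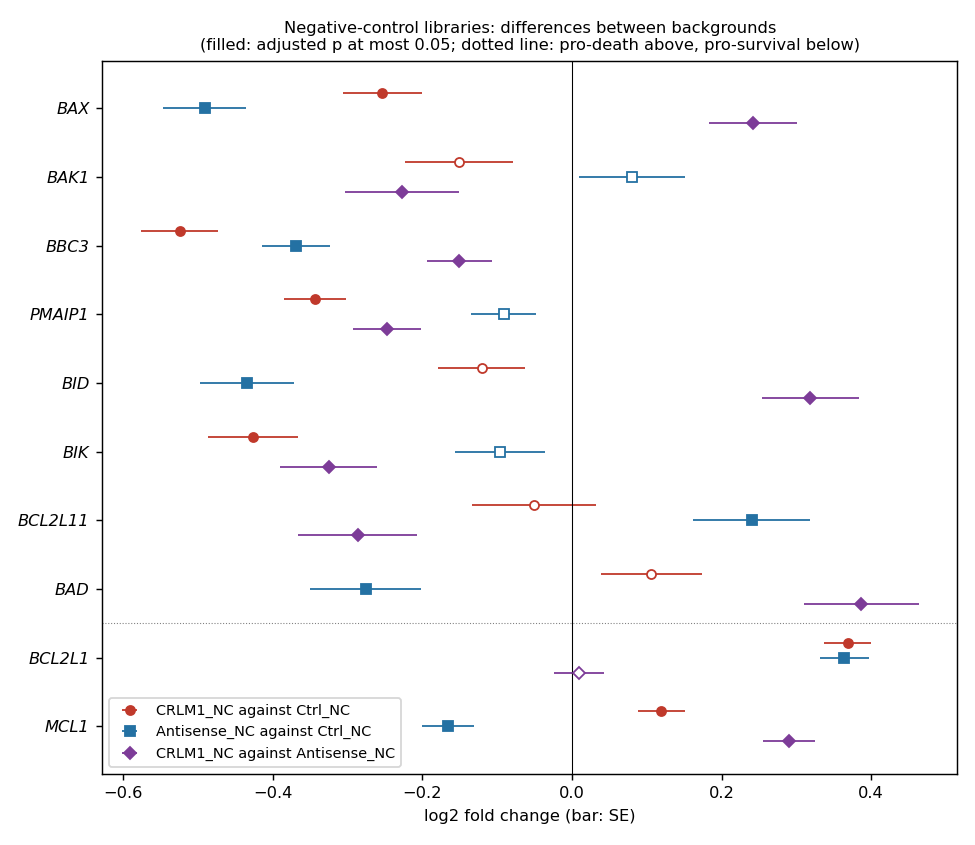
Log2 fold change of each member (x axis, with SE bars) in the 3 comparisons of NC groups, filled where the adjusted p is at most 0.05. BBC3 lies at -0.52, -0.15 and -0.37, and BCL2L1 at 0.37, 0.01 and 0.36, for CRLM1_NC against Ctrl_NC, CRLM1_NC against Antisense_NC and Antisense_NC against Ctrl_NC.

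The base composition of the transcripts and the scale moved with some of these values. BBC3 is the richest member in G and C, at 69.7% of its longest transcript, and PMAIP1 the poorest, at 36.7%. Over all genes the log2 fold change had a Spearman correlation with GC content of -0.16 in CRLM1_NC against Ctrl_NC, 0.29 in CRLM1_NC against Antisense_NC and -0.30 in Antisense_NC against Ctrl_NC. With the trend on GC content and length removed from each library, BBC3 was at -0.34 (SE 0.04) in CRLM1_NC against Ctrl_NC and at -0.39 (SE 0.04) against Antisense_NC, and passed in both. In Antisense_NC against Ctrl_NC it was at 0.06 (SE 0.04) and no longer passed. BCL2L1 was then at 0.40, -0.03 and 0.42 in the same order of comparisons. BBC3 thus no longer showed the largest difference of the members in CRLM1_NC against Ctrl_NC. In CRLM1_NC against Antisense_NC 2 members passed as higher and 4 as lower with that trend removed, beside 27.9% and 25.5% of genes. BAX and BAD failed to pass there in 4 alternatives each, and BID in 3. The FPKM scale shifted the median gene by 0.19 in Antisense_NC against Ctrl_NC and by -0.13 in CRLM1_NC against Antisense_NC relative to the TMM scale, and on the FPKM scale BBC3 was at -0.13 and did not pass in the former. PMAIP1 and MCL1 in the former, and BCL2L1 in the latter, changed sign with that scale.

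The hnRNPK construct was compared with NC within each background. In the Antisense background, where no library stood apart, 9 of 10 members passed, 2 higher and 7 lower, against 63.9% of 14501 genes, 33.4% higher and 30.5% lower. In the single fit of 18 libraries 3 members passed, BAX, BAK1 and PMAIP1, and BBC3 had an edgeR adjusted p of 0.101 (range 6.61e-09 to 0.184 over 15 fits, the main fit included). In the fit of this background alone, PMAIP1 and MCL1 rose, BAX, BAK1, BBC3, BIK, BCL2L11, BAD and BCL2L1 fell, and BID did not pass. BBC3 lay at 188, 193 and 205 CPM in Antisense_NC and at 151, 120.3 and 136 CPM in Antisense_hnRNPK. The groups did not overlap, and BBC3 fell by 0.53 on the log2 scale (SE 0.09, edgeR adjusted p = 1.05e-04). PMAIP1 lay at 118, 128 and 122 CPM without and at 189, 163 and 201 CPM with hnRNPK, a rise of 0.58 (SE 0.08, edgeR adjusted p = 2.68e-05). MCL1 lay at 297, 318 and 302 CPM without and at 396, 406 and 409 CPM with hnRNPK, a rise of 0.40 (SE 0.07, edgeR adjusted p = 3.07e-04). For both genes every hnRNPK library was above every NC library.

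Both effectors fell with hnRNPK in this background, BAX by 0.64 (SE 0.09) and BAK1 by 0.65 (SE 0.10). BAX went from 52.7, 54.3 and 57.6 CPM to 38.0, 31.2 and 36.8 CPM, and BAK1 from 35.4, 41.5 and 40.8 CPM to 27.9, 22.9 and 24.6 CPM, with no overlap. Of the other members, BIK fell by 0.45 (SE 0.10), BCL2L1 by 0.42 (SE 0.08), BAD by 0.39 (SE 0.11) and BCL2L11 by 0.31 (SE 0.10), while BID was at -0.13 (SE 0.08, edgeR adjusted p = 0.185). The groups of 9 members did not overlap, against 72.4% of genes, and the median log2 fold change was -0.41 over the members and 0.04 over all genes. The FPKM scale shifted the median gene by 0.24 here, and on it 5 members passed.

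In the Ctrl background 0 members passed with all libraries, as did 0.00% of 14607 genes. By DESeq2 0 members passed, and 1 member, PMAIP1, had an unadjusted p under 0.05. BBC3 lay at 257, 253 and 221 CPM in Ctrl_NC and at 162, 132 and 307 CPM in Ctrl_hnRNPK, so the third library was above every NC library and the other two were below. Its log2 fold change was -0.31 (SE 0.28, edgeR adjusted p = 0.497). PMAIP1 lay at 122, 128 and 128 CPM in Ctrl_NC and at 242, 205 and 156 CPM in Ctrl_hnRNPK, a log2 fold change of 0.65 (SE 0.20, edgeR adjusted p = 0.320). The groups of 2 members, PMAIP1 and BID, did not overlap, against 21.7% of genes.

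Without the third Ctrl_hnRNPK library all 10 members passed, 2 higher and 8 lower, as did 59.6% of 15004 genes, 29.6% higher and 29.9% lower. BBC3 was then at -0.70 (SE 0.09, edgeR adjusted p = 5.60e-06), and its adjusted p ran from that value to 1.00 over 16 fits, the main fit included. PMAIP1 was at 0.85 (SE 0.07) and MCL1 at 0.25 (SE 0.08). The other 8 members were lower, from -0.35 (SE 0.08) for BID to -0.85 (SE 0.06) for BCL2L1, with BAK1 at -0.74, BAD at -0.69, BIK at -0.68, BAX at -0.66 and BCL2L11 at -0.53. The direction of each was that seen in the Antisense background. The median was -0.67 over the members and 0.03 over all genes.

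In the CRLM1 background the pattern of libraries was alike. With all libraries 0 members passed by edgeR, 0 by DESeq2 and 0.00% of 14394 genes, and 2 members, PMAIP1 and MCL1, had an unadjusted p under 0.05. BBC3 lay at 159, 176 and 179 CPM in CRLM1_NC and at 115, 113 and 208 CPM in CRLM1_hnRNPK, a log2 fold change of -0.20 (SE 0.24, edgeR adjusted p = 0.742). MCL1 lay at 362, 362 and 369 CPM against 608, 601 and 357 CPM, with the third hnRNPK library at the NC level. PMAIP1 lay at 98.6, 102 and 101 CPM against 188, 200.2 and 119 CPM. The third library was above the NC libraries but well below the others. The groups of PMAIP1 and BCL2L11 did not overlap, 2 of 10 members, against 15.5% of genes.

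Without the third CRLM1_hnRNPK library all 10 members passed, 2 higher and 8 lower, as did 58.5% of 14685 genes, 29.5% higher and 29.1% lower. PMAIP1 rose by 1.00 (SE 0.05), the largest rise of any member in the hnRNPK comparisons run with and without these libraries, and MCL1 by 0.78 (SE 0.05). BBC3 fell by 0.54 (SE 0.06, edgeR adjusted p = 4.39e-09, with a range from that value to 0.998 over 16 fits, the main fit included). BAD fell by 0.74, BCL2L1 by 0.63, BAX by 0.59, BAK1 by 0.41, BCL2L11 by 0.41, BIK by 0.23 and BID by 0.19. The median was -0.41 over the members and 0.00 over all genes.

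**Figure D3:**
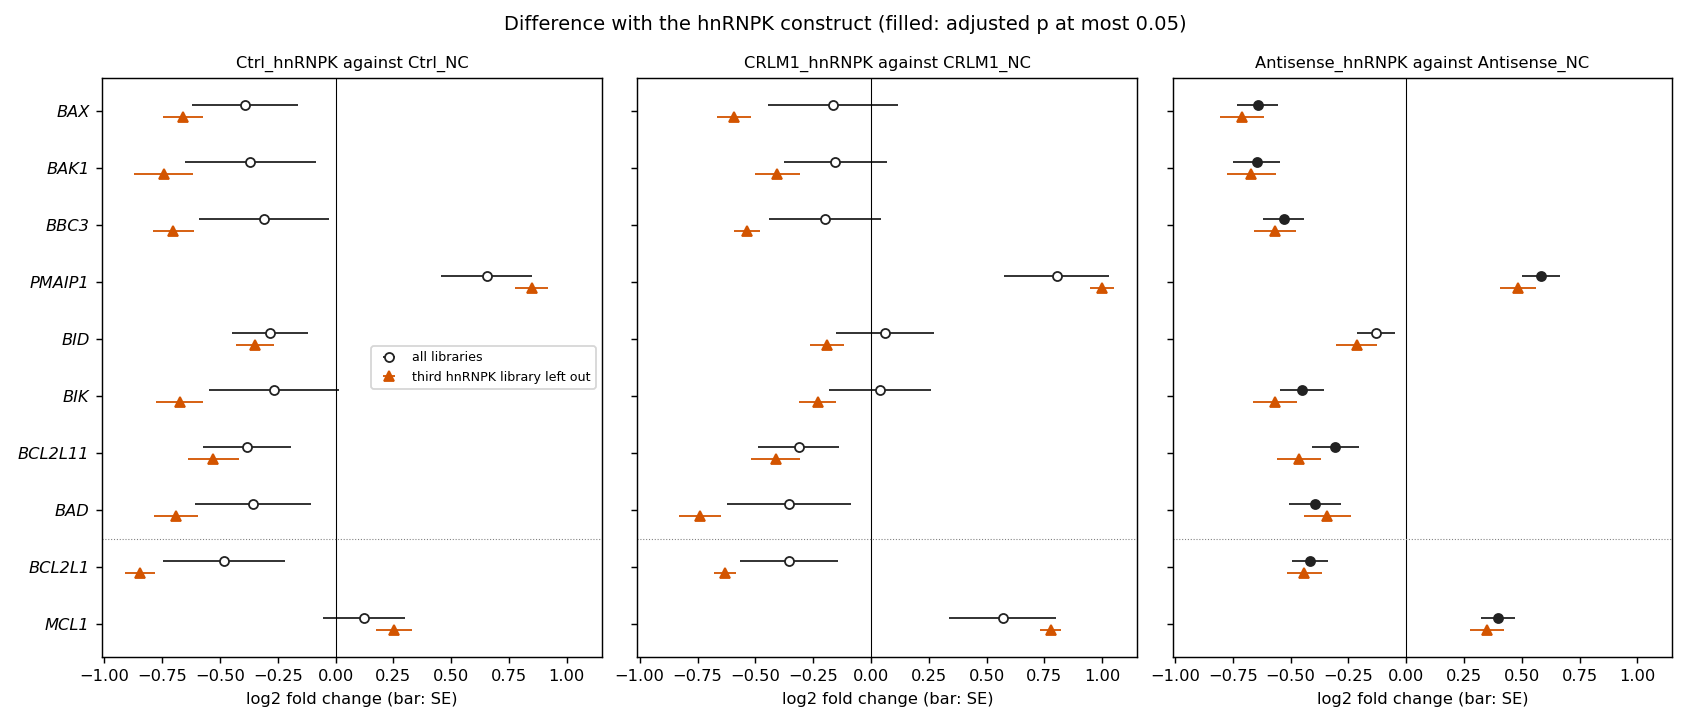
Log2 fold change of each member (x axis, with SE bars) with the hnRNPK construct in each background, with all libraries (circles) and with the third hnRNPK library of that background left out (triangles). PMAIP1 and MCL1 lie to the right of 0 in all 3 panels. BBC3 lies at -0.70 in Ctrl and -0.54 in CRLM1 without the third libraries, and at -0.53 in Antisense with all libraries.

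GC content moved with the hnRNPK comparisons much more than with those of the backgrounds. Across all genes the Spearman correlation of the log2 fold change with GC content without the third libraries was -0.74 for Ctrl and -0.76 for CRLM1, and it was -0.71 for Antisense with all libraries. Genes with 65 to 70% G and C, the range of BBC3 and BAD, had medians of -0.65, -0.64 and -0.70 in the Ctrl, CRLM1 and Antisense backgrounds. Genes with 35 to 40%, the range of PMAIP1, had medians of 0.69, 0.63 and 0.69. BBC3, at -0.70, -0.54 and -0.53, lay within the quartiles of its bin in all 3. BAD did so at -0.69 and -0.74 in Ctrl and CRLM1 and at -0.39 in Antisense, where it was near the upper quartile of -0.37. PMAIP1, at 0.85, 1.00 and 0.58, lay within the quartiles of its bin in Ctrl and Antisense and above them in CRLM1. BCL2L11, with 46.6% G and C, lay below the lower quartile of its bin in all 3, where the medians were 0.11, 0.12 and 0.13. BID and BCL2L1 lay below the lower quartiles of their bins in Ctrl and CRLM1. BAK1 and, barely, BIK did so in Ctrl, and BAX barely in CRLM1. MCL1 lay above the upper quartile of its bin in CRLM1.

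**Figure D4:**
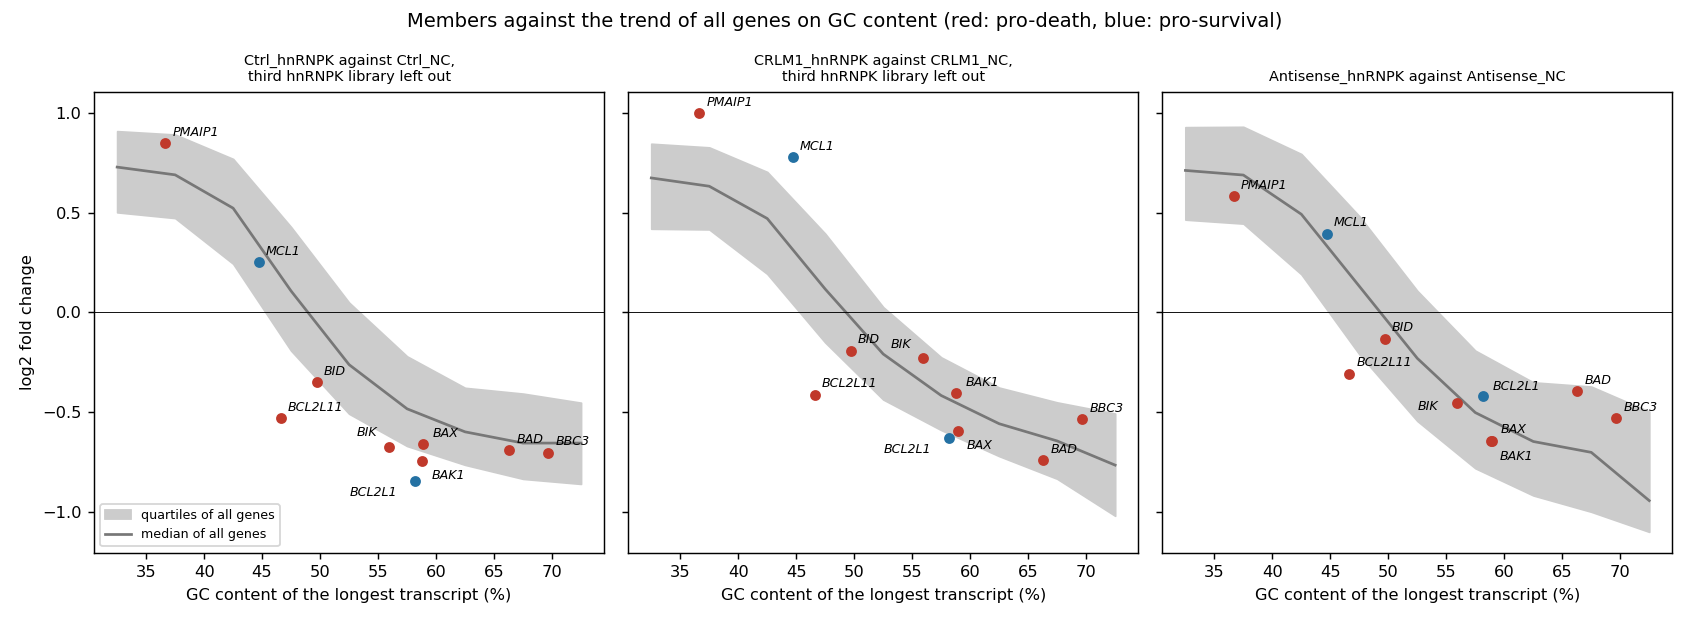
Log2 fold change with hnRNPK (y axis) against the GC content of the longest transcript in percent (x axis), with the members as points and the median and quartiles of all genes in bins of 5 percentage points, without the third libraries of Ctrl and CRLM1. BBC3 and BAD lie within the quartiles of their bin, BAD near the upper one in Antisense (-0.39 against a median of -0.70), PMAIP1 within those of its own in Ctrl and Antisense, and BCL2L11 below the lower quartile of its bin in all 3 panels.

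With the trend on GC content and length removed, and the third libraries of Ctrl and CRLM1 left out, 4 members passed in the Ctrl background (26.1% of genes), 5 in the CRLM1 background (27.5%) and, with all its libraries, 2 in the Antisense background (39.5%). BCL2L11 passed in all 3 of these fits, at -0.69 (SE 0.11), -0.58 (SE 0.10) and -0.47. BBC3 was at -0.07 (SE 0.08) in Ctrl, at 0.16 (SE 0.05) in CRLM1, where it passed on the other side of 0, and at 0.15 in Antisense, where it did not pass. PMAIP1 was at 0.17 in Ctrl, 0.37 in CRLM1 and -0.16 in Antisense, and MCL1 at -0.05, 0.48 and 0.10, both passing in the CRLM1 background only among these fits. BCL2L1 was at -0.36 in Ctrl and -0.20 in CRLM1 and passed in both. This removal also takes out any true difference that follows GC content, so neither set of values can be taken as the corrected one.

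Whether the hnRNPK difference varied with the background was tested as an interaction. With all libraries, 0 members passed in any of the 3 interactions by edgeR, 0 by DESeq2 and 0 had an unadjusted p under 0.05, against 0.00% of genes passing for CRLM1 minus Ctrl, 1.12% for CRLM1 minus Antisense and 0.00% for Antisense minus Ctrl. For BBC3 the difference was 0.08 (SE 0.40), 0.33 (SE 0.28) and -0.25 (SE 0.31) on the log2 scale in that order. With the third Ctrl and CRLM1 libraries left out these became 0.20 (SE 0.11), 0.01 (SE 0.12) and 0.16 (SE 0.14), none of which passed. MCL1 rose more with hnRNPK in the CRLM1 background than in Ctrl, by 0.56 (SE 0.09, edgeR adjusted p = 8.95e-04), and than in Antisense, by 0.40 (SE 0.09, edgeR adjusted p = 0.00598), in these fits without the third libraries, in which 3.45% and 17.4% of genes passed. PMAIP1 rose more in CRLM1 than in Antisense by 0.43 (SE 0.11), and BIK fell less in CRLM1 than in Ctrl by 0.47 (SE 0.13). BCL2L1 fell less in Antisense than in Ctrl by 0.41 (SE 0.11), in a fit in which 6.62% of genes passed. With the GC trend also removed the MCL1 differences were 0.53 (SE 0.09) and 0.38 (SE 0.09) and both passed, whereas that of BIK did not. HNRNPK RNA itself differed between the hnRNPK groups of these fits. It lay at 671 and 713 CPM in CRLM1_hnRNPK, 617 and 644 CPM in Ctrl_hnRNPK and 532 to 583 CPM in Antisense_hnRNPK. A difference between backgrounds and one in the amount of HNRNPK RNA cannot be told apart in these interactions.

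The balance of pro-death to pro-survival RNA was described as the log2 ratio of the summed FPKM of the 8 pro-death to that of the 2 pro-survival members, without a test. It was 0.73 ± 0.08 (SD, n = 3) in Ctrl_NC, 0.12 ± 0.08 in CRLM1_NC and 0.29 ± 0.06 in Antisense_NC. The 3 Ctrl_NC libraries, at 0.64 to 0.77, lay above those of CRLM1_NC at 0.03 to 0.17 and of Antisense_NC at 0.23 to 0.35, and these did not overlap either. The summed FPKM was 253 ± 6.16 pro-death and 153 ± 4.60 pro-survival in Ctrl_NC, and 212 ± 9.36 and 195 ± 5.08 in CRLM1_NC, so both sums differed. BBC3 made up 32.2% ± 1.78 of the pro-death sum in Ctrl_NC and 28.2% ± 0.625 in CRLM1_NC. The ratio of BBC3 to BCL2L1 was 0.852 ± 0.0935 in Ctrl_NC, 0.458 ± 0.0376 in CRLM1_NC and 0.512 ± 0.0211 in Antisense_NC. A ratio of RNA levels is not one of proteins, which were not measured in these files.

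With hnRNPK the balance in the Ctrl group was 0.84 ± 0.09, in the CRLM1 group 0.15 ± 0.23 and in the Antisense group 0.19 ± 0.17. The first lay above the others, and each of the 3 overlapped its NC group. In the CRLM1 group the third library was at 0.41 and the others at 0.00 and 0.04. Without the third libraries the means were 0.79 in the Ctrl group and 0.02 in the CRLM1 group (n = 2 each). The summed balance hides changes among the members. The ratio of PMAIP1 to BBC3 was 0.518, 0.586 and 0.626 in Ctrl_NC, CRLM1_NC and Antisense_NC. It was 1.48 and 1.55 in the first 2 Ctrl_hnRNPK libraries and 0.507 in the third, 1.63 and 1.76 in the first 2 CRLM1_hnRNPK libraries and 0.570 in the third, and 1.25, 1.35 and 1.47 in Antisense_hnRNPK. Outside the third libraries, PMAIP1 thus exceeded BBC3 in each hnRNPK library and in no NC library. The ratio of MCL1 to BCL2L1 was 0.593, 0.499 and 0.411 in the 3 NC groups. It was 1.34, 1.19 and 0.525 in Ctrl_hnRNPK, 1.36, 1.29 and 0.472 in CRLM1_hnRNPK and 0.731, 0.692 and 0.745 in Antisense_hnRNPK, so that MCL1 exceeded BCL2L1 in the first 2 libraries of Ctrl_hnRNPK and CRLM1_hnRNPK. Both ratios set a member poorer in G and C over a richer one. PMAIP1 has 36.7% against 69.7% in BBC3, and MCL1 44.7% against 58.2% in BCL2L1. The ratios thus run along the GC trend of all genes and were not adjusted for it. Fold changes of these members with that trend removed are given above.

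**Figure D5:**
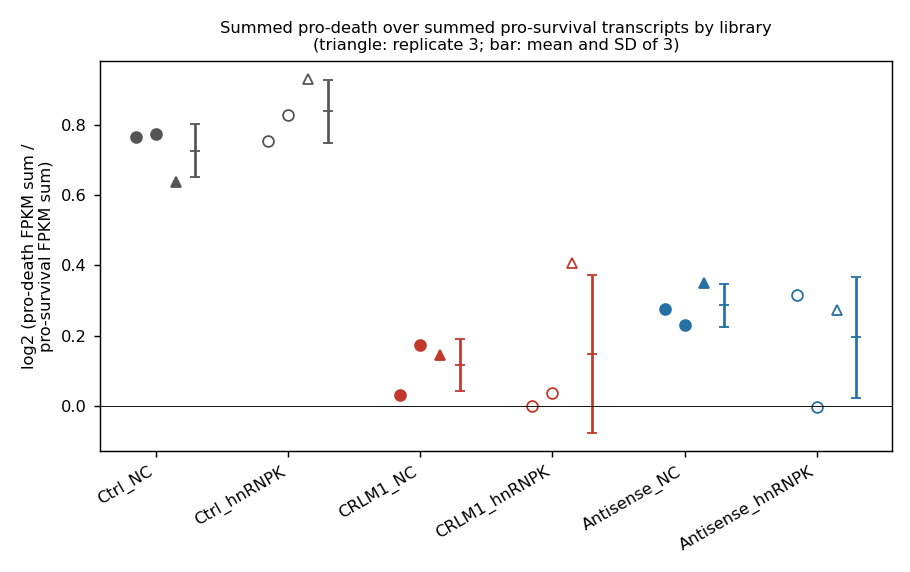
Log2 ratio of the summed FPKM of the 8 pro-death members to that of the 2 pro-survival members (y axis) by group, with 1 point per library and the mean and SD of each group. Ctrl_NC (0.73) and Ctrl_hnRNPK (0.84) lie above the 4 groups of the CRLM1 and Antisense backgrounds (0.12 to 0.29), and without the third library the CRLM1_hnRNPK mean is 0.02.

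Across the 18 libraries the members varied in 2 directions, described here without a test since the libraries share their groups, the split of the third libraries and the GC trend. The log2 CPM of BBC3 correlated with that of BIK at r = 0.909, BAX at 0.856 and BAK1 at 0.833 (n = 18), and with that of MCL1 at -0.739 and PMAIP1 at -0.518. PMAIP1 correlated with BAD at -0.844 and BCL2L1 at -0.828. Without the third libraries (n = 16) these were 0.877, 0.850, 0.808, -0.759, -0.619, -0.933 and -0.830 in the same order. The 5 genes most like BBC3 by this measure among 12958 genes were RXRB (r = 0.961), RNF215 (0.955), ELP5 (0.954), PC (0.950) and ZNF316 (0.945), with 55.9 to 62.9% G and C in their longest transcripts. Their correlations over the 16 libraries were 0.935 to 0.958.

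Other apoptosis genes were counted in 4 lists. Of the rest of the BCL2 family, BCL2 itself had at most 27 counts in a library and BCL2L2, another pro-survival gene, group means of 10.6 to 15.5 FPKM. In CRLM1_NC against Ctrl_NC, 0 of 7 tested family members were higher and 3 lower, 6 of 17 caspases, apoptosome genes and inhibitors were higher and 2 lower, 2 of 6 death receptor genes were higher and 2 lower, and 5 of 12 regulators of the family were higher and 3 lower. The medians of the lists were -0.03, 0.12, -0.09 and 0.10, beside 0.01 for all genes. Of all genes, 16.9% were higher and 17.4% lower, and with the GC trend removed the caspase list had 4 genes higher and 4 lower. FADD, the adaptor that recruits caspase-8 to death receptors, rose by 0.85 (SE 0.20), the receptor-associated kinase RIPK1 by 0.53 (SE 0.19) and CASP8 by 0.52 (SE 0.19). TRADD fell by 0.45 (SE 0.11), the cell cycle factor E2F1 by 0.37 (SE 0.05) and the inhibitor BIRC5 (survivin) by 0.36 (SE 0.05). FADD and CASP8 were low in both groups, at 1.15 ± 0.345 and 0.753 ± 0.254 FPKM in Ctrl_NC and 2.16 ± 0.268 and 1.14 ± 0.0611 FPKM in CRLM1_NC.

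The Antisense background differed more from Ctrl in these genes, with 12 of 17 caspases, apoptosome genes and inhibitors higher and 3 lower in Antisense_NC than in Ctrl_NC, where 34.4% of all genes were higher and 32.2% lower. With the GC trend removed 8 were higher and 4 lower, and the median of the list was -0.01 in place of 0.29. FADD rose by 2.30 (SE 0.16), CASP8 by 1.64 (SE 0.15) and RIPK1 by 1.58 (SE 0.15), while E2F1 fell by 1.21 (SE 0.06), BIRC5 by 0.59 (SE 0.05) and the mitochondrial channel gene VDAC1 by 0.55 (SE 0.03). FADD reached 6.54 ± 0.769 FPKM in Antisense_NC. Against that group CRLM1_NC had FADD lower by 1.44 (log2 fold change -1.44, SE 0.13), CASP8 at -1.12 (SE 0.12) and RIPK1 at -1.05 (SE 0.15), with 3 of 17 genes of that list higher and 11 lower, beside 26.9% and 29.5% of all genes. With the GC trend removed 5 were higher and 8 lower. The largest rises in the 4 lists described here were those of BCL2, at 1.95 (SE 0.62) with at most 15 counts in a CRLM1_NC library, of E2F1, at 0.84 (SE 0.07), and of VDAC1, at 0.45 (SE 0.03). In Antisense_hnRNPK against Antisense_NC, 10 of these 17 were higher and 1 lower, beside 33.4% and 30.5% of all genes, with the executioner caspase CASP6 at 1.12 (SE 0.21) and the initiator CASP8 at 0.97 (SE 0.13). TP73 fell by 1.20 (SE 0.12), the BH3-only gene BMF by 0.95 (SE 0.28) and E2F1 by 0.90 (SE 0.11). With the GC trend removed the count of this list was 5 higher and 3 lower.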

How the data were processed

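Gene-level read counts and FPKM values were analysed for 18 HCT116 libraries. The authors prepared libraries with the KAPA RNA HyperPrep kit, trimmed reads with FASTX-Toolkit, aligned them with TopHat2 to GRCh38 with Gencode v23 models, and deposited raw counts of uniquely mapped reads per gene. The authors' deposited FPKM values divide those by length and mapped reads. Each pair of groups was fitted on its own 6 libraries, and each interaction on 12, with edgeR 4.0.16 (TMM, filterByExpr, robust quasi-likelihood F-test, two-sided) in R 4.3.3, with p-values adjusted by Benjamini-Hochberg over every gene tested. A gene passed at an adjusted p of at most 0.05, and 2-fold changes were counted apart. SE was derived from the F statistic. CPM used TMM factors over all 18 libraries.

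Alternatives were DESeq2 1.42.0, RLE factors, no filter, a replicate block, 1 fit of 18 libraries, limma 3.58.1 on log2(FPKM + 0.1) and log2(FPKM + 1), a fit offset for GC content and transcript length (splines with 5 df, Gencode 44 longest transcripts) and leaving out each replicate. The GC offset together with the third libraries left out, and the member levels and correlations without them, were added after seeing the data. The fits were tested on simulated counts. The members and lists were chosen with earlier results of these data known. All 10 members were named, and of the pathway lists the 3 highest and 3 lowest log2 fold changes that passed, apart from a gene that is not reported here. Libraries held 19732681 to 27039520 counts, and no molecular identifiers were named in the sources used here. No column was left unmapped, and no library was removed in the main fits.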

Additional observations from a re-analysis of the deposited data

How the results depend on the processing

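Passing members numbered 6, 9 and 7 in the comparisons of NC groups (CRLM1 against Ctrl, CRLM1 against Antisense, Antisense against Ctrl), 0, 0 and 9 with hnRNPK in Ctrl, CRLM1 and Antisense, and 0 in each interaction. DESeq2 changed none of 90 member results. One fit of 18 libraries, whose spread includes the third libraries, gave 0, 0 and 0 for the NC comparisons and 3 for Antisense with hnRNPK. Limma on FPKM gave 5 for the latter with either pseudocount, and GC removal gave 2 there and 2 for the interaction CRLM1 minus Antisense. Leaving out the third libraries gave 10 members in Ctrl and 10 in CRLM1, and 2, 2 and 1 in the interactions CRLM1 minus Ctrl, CRLM1 minus Antisense and Antisense minus Ctrl. With GC removed as well, these were 4, 5, 1, 4 and 1. Leaving out single replicates gave 6 to 7, 7 to 9, 7 to 8, 0 to 10, 0 to 10 and 8 to 10 members in the comparisons and 0, 0 to 2 and 0 to 1 in the interactions. The balance ran from 0.70 to 0.77 in Ctrl_NC, 0.79 to 0.88 in Ctrl_hnRNPK, 0.09 to 0.16 in CRLM1_NC, 0.02 to 0.22 in CRLM1_hnRNPK, 0.25 to 0.31 in Antisense_NC and 0.13 to 0.29 in Antisense_hnRNPK. Without BAX it was 0.50, 0.66, -0.13, -0.051 and 0.10 in the first 5 groups, and without MCL1 1.40, 1.83, 0.70, 1.14, 0.78 and 0.98. Signs turned on the FPKM scale for BCL2L1 in CRLM1 against Antisense (-0.16 and -0.15) and for PMAIP1 (0.14) and MCL1 (0.067 and 0.066) in Antisense against Ctrl. With GC removed they turned for BBC3 (0.061), BIK (0.16) and BAD (0.13) in Antisense against Ctrl, for BBC3 (0.15), PMAIP1 (-0.16), BAD (0.27) and BCL2L1 (0.12) in Antisense with hnRNPK, and for BAD (-0.41) in CRLM1 minus Antisense. They also turned in CRLM1 with hnRNPK when single libraries were left out, for BID (-0.19 to 0.17) and BIK (-0.23 to 0.16), the low ends being without the third hnRNPK library, and, with GC also removed, for BBC3 (0.16) there and for BAD (-0.40) and BCL2L1 (-0.31) in CRLM1 minus Antisense. Only turns in which the main fit or the alternative passed are listed. Apart from fits with a single replicate left out, 62 further member results did not keep their sign where neither fit passed. The cause of these turns was not tested. The replicate block left every count of passing members at 6, 9, 7, 0, 0, 9, 0, 0 and 0, and moved the count over all genes in CRLM1_NC against Ctrl_NC from 4960 to 4904. With each group mean subtracted, same-numbered libraries of compared groups correlated at -0.12 to 0.0671, which gives little sign of pairing by number. Of 6 libraries, 5 correlated best with their own number in CRLM1_NC against Ctrl_NC and in CRLM1_hnRNPK against CRLM1_NC. In the other comparisons 0 to 4 did so. Depth limits BCL2, FADD and CASP8 more than the members.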
